A study of Rattus norvegicus with 9 samples.

Results

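The genes described here are 10 imprinted genes of the rat, namely Meg3, H19, Cdkn1c, Grb10, Dlk1, Plagl1, Mest, Ndn, Peg3 and Gnas. Their probe sets were chosen as all those that the platform table pairs with 1 gene symbol from this list. The choice gave 14 probe sets for 9 of the 10 genes, out of 31099 probe sets on the array, and Peg3 was not analysed here. RNA was taken at embryonic day 13 from Sprague-Dawley rats and hybridised to 9 single-colour Affymetrix arrays. There were 3 arrays of the ureteric bud (UB, the epithelial outgrowth that branches into the collecting system), 3 of the Wolffian duct with its attached mesodermal cells (WD+IM), and 3 of the isolated Wolffian duct (WD, the tube from which the bud grows). Each array held a pool of about 100 UBs, about 50 WD+IM or about 100 WDs, so a p-value reflects how far such pools vary. The UBs were freed by a light trypsin step and the WDs were isolated untreated, so the digestion and the tissue cannot be told apart.

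An imprinted gene is expressed mainly or only from the copy inherited from 1 parent. Imprinted clusters are controlled by regions whose DNA methylation is set on 1 parental copy in the germ line, and the methylated copy of such a region is not always the one on which a gene is silent. Many imprinted genes act on the growth of the embryo, and as a rule described in mouse the paternally expressed ones promote growth while the maternally expressed ones restrain it. Meg3, H19, Cdkn1c and, in most tissues, Grb10 are expressed from the maternal copy in mouse. Dlk1, Plagl1, Mest, Ndn and Peg3 are expressed from the paternal copy there. Gnas lies in a locus with several promoters, of which some are imprinted and the one for the stimulatory G protein alpha subunit is so only in certain tissues. The arrays measured the total RNA of a gene and give no information on which copy it came from.

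The promoters of Meg3 and Dlk1 are shown because these neighbours on chromosome 6 had the largest differences between tissues, and the sequences give the base composition around each start. They run from 250 bases before to 50 bases after the gene start, 5′ to 3′ on the plus strand, from RefSeq on GRCr8. Meg3 lies at chr6:134273806-134274105 and Dlk1 at chr6:134192347-134192646. Capitals mark matches to the motifs TGACGTCA (the cyclic AMP response element) and TATAAA (the TATA box), which were searched on both strands.
Meg3: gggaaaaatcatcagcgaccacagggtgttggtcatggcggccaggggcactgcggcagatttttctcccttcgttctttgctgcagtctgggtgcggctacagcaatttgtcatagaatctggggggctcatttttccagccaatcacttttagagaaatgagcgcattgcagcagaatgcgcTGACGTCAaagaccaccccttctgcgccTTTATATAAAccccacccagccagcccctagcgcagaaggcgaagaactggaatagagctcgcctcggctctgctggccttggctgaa
Dlk1: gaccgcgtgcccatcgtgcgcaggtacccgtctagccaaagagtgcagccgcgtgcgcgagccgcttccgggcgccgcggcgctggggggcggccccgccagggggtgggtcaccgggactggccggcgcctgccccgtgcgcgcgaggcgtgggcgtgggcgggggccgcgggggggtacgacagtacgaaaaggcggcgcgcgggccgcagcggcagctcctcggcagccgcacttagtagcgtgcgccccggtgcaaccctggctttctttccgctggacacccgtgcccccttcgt

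The Meg3 window held 1 TGACGTCA, which began at -66 from the gene start, and TATAAA on both strands at -38 and -34, where the 2 matches overlap. Of 33469 rat promoter windows of the same 300 bases, 1.83% held TGACGTCA and 14.2% held TATAAA. The Dlk1 window held neither motif. The motif of PLAGL1, GGGGCCCC, which 0.858% of windows held, and that of the insulator protein CTCF, which 0.0239% held, were searched too and were in neither window. It had 45 CpG dinucleotides and 76% G and C, and the Meg3 window had 13 CpG and 54.3% G and C, against medians of 7 CpG and 51.7% over all windows. Promoter windows were found for 8 of the 10 genes, and H19 and Cdkn1c were not among them.

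H19 and Meg3 are RNAs with no known protein, and each is the host of a microRNA. Of 4 mature forms listed in these hosts, 3 are shown as examples of the short products the 2 transcripts can give, and rno-miR-770-3p is left out. Seeds (bases 2 to 8) are in capitals, from RefSeq on GRCr8, and the microRNAs themselves were not analysed here.
rno-miR-675-5p, in H19, chr1:207161800-207161821, minus strand: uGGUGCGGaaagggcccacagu
rno-miR-675-3p, in H19, chr1:207161766-207161786, minus strand: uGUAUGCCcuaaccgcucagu
rno-miR-770-5p, in Meg3, chr6:134298094-134298115, plus strand: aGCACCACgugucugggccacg

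Signals are the deposited intensities, which the authors had scaled so that each array has a trimmed mean of 2501 units. Differences were tested with limma on log2(intensity + 46) over 20330 probe sets, which understates the change of weak genes, and a gene was called where the Benjamini-Hochberg adjusted p was under 0.05. Each gene stands by its brightest probe set, all 14 probe sets passed the filter on weak signals, and differences are the first-named tissue minus the other. Fewer cells of a type and less RNA per cell cannot be told apart in these pools. Every tissue enters 2 of the 3 comparisons, which therefore are not independent of each other.

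In UB against WD, 5 of the 9 genes were lower (Meg3, Dlk1, H19, Plagl1 and Cdkn1c), none was higher and 4 were not called. Over all 20330 probe sets, 29.9% were called, 18.6% lower and 11.3% higher. That split depended on the scaling: 2297 probe sets were higher and 3776 lower as deposited, 2526 higher and 2433 lower with quantile normalization, and 5835 higher and 1530 lower with arrays centred on their medians. With median centring 4 of the 9 genes were called, and 6 were called when a gene's probe sets were averaged. The arrays of the 2 tissues did not overlap for 5 of the 9 genes, against 47.8% of all probe sets. The called genes were 3 of 4 maternally expressed ones and 2 of 4 paternally expressed ones. The median log2 difference of the 9 genes was -0.60 in UB against WD, and that of all probe sets tested was -0.12.
In UB against WD+IM, 6 genes were lower (the same 5 and Mest) and none was higher, against a background of 25.5% called, 14.5% lower and 11% higher. Here 2228 probe sets were higher and 2948 lower as deposited, against 4610 higher and 1792 lower with median centring, where 5 of the 9 genes were called. Arrays did not overlap for 8 of the 9 genes, against 42.6% of all probe sets. Their median difference was -1.68, against -0.05 for all probe sets. In WD+IM against WD, Cdkn1c alone was called and was higher, where 12.7% of probe sets were called, 5.62% higher and 7.06% lower. Arrays did not overlap for 4 of the 9 genes, against 29.6% of all probe sets. The median was 0.30 there, against -0.04 for all probe sets.

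**Figure D1:**
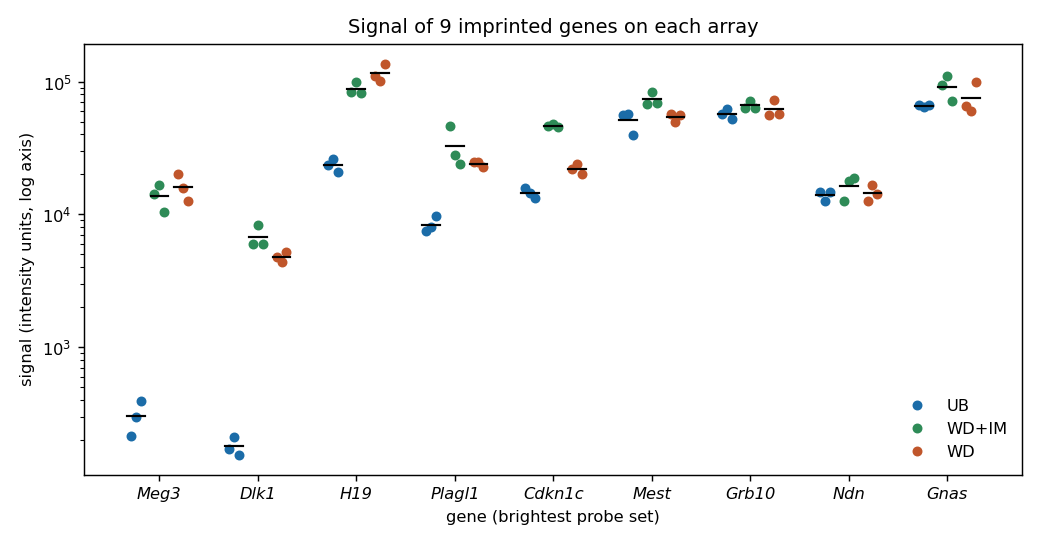
Signal in intensity units on a log axis for the brightest probe set of each of 9 imprinted genes, with 1 point per array, the group mean as a bar, and UB, WD+IM and WD from left to right. The UB arrays lie below all other arrays for Meg3, Dlk1, H19, Plagl1 and Cdkn1c, and the tissues lie close together for Grb10 and Ndn.

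Meg3, a maternally expressed long noncoding RNA, was the gene with the widest difference. Its signal was 213, 298 and 393 units on the UB arrays, 14253, 16495 and 10446 units on the WD+IM arrays, and 20160, 15859 and 12527 units on the WD arrays. The UB arrays were far below every other array, while the WD+IM and WD arrays overlapped. The UB values lay at the 35.9 to 42.8 percentile of their arrays, where a weak signal cannot be told from background, so the differences below depend on the background that remains in UB. The log2 difference in UB against WD was -5.55 ± 0.24 (SE, limma adjusted p = 3.52e-08). UB against WD+IM gave -5.32 ± 0.24 (limma adjusted p = 1.47e-08), and WD+IM against WD gave -0.23 ± 0.24 (limma adjusted p = 0.565).
The second Meg3 probe set, 1377008_at, was likewise low in UB. It had 58.3, 5.14 and 51.9 units on the UB arrays, 4290, 2052 and 3376 units on the WD+IM arrays, and 3345, 1323 and 1948 units on the WD arrays. The UB values are near or below the 46 units added before taking logs, so a weak UB signal cannot be told from background. Its difference in UB against WD was -4.70 ± 0.41 (limma adjusted p = 7.24e-06). In WD+IM against WD it gave 0.58 ± 0.41, the opposite sign to the first probe set, and was not called either (limma adjusted p = 0.379).

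Dlk1, a paternally expressed membrane protein related to the Notch ligands, was also far lower in UB than in both other tissues. It had 172, 210 and 153 units on the UB arrays, 5933, 8248 and 6019 units on the WD+IM arrays, and 4753, 4392 and 5239 units on the WD arrays. No UB array came near the others, and the lowest WD+IM array was above the highest WD array. UB against WD gave a log2 difference of -4.44 ± 0.20 (limma adjusted p = 3.52e-08). The UB values lay at the 26.5 to 34.4 percentile of their arrays, so the limit stated for Meg3 holds for the size of this difference too. WD+IM against WD gave 0.47 ± 0.20 and was not called (limma adjusted p = 0.136), although the arrays of the 2 tissues did not overlap. In the GRCr8 gene table only 1 gene, LOC134479157, starts between the starts of Dlk1 and Meg3. The 2 neighbours are expressed from opposite parental copies in mouse, and here both were low in UB. Dio3, an enzyme that inactivates thyroid hormone and the far member of the same imprinted cluster, averaged 492 units in UB, 402 units in WD+IM and 525 units in WD. Its difference in UB against WD was -0.12 ± 0.37 (limma adjusted p = 0.830), and it was not called.

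H19, a maternally expressed RNA that is abundant in embryonic mesoderm and endoderm of mouse, stayed well above the weak range in every tissue. It had 23425, 26196 and 20889 units on the UB arrays, 83836, 99634 and 81417 units on the WD+IM arrays, and 110885, 101514 and 136596 units on the WD arrays. The 3 tissues did not overlap, with UB lowest and WD highest. The WD mean was 4.95 times the UB mean, a UB against WD log2 difference of -2.30 ± 0.14 (limma adjusted p = 4.59e-07). WD+IM and WD, the neighbours in that order, differed by -0.39 ± 0.14 and were not called apart (limma adjusted p = 0.0919).
Igf2, the paternally expressed growth factor, is the neighbour of H19, and the only gene that starts between their starts is Mir675, which lies inside H19. Igf2 averaged 20834 ± 1778 units in UB, 108281 ± 23297 units in WD+IM and 120415 ± 18755 units in WD (SD, n = 3 each). Its difference in UB against WD was -2.52 ± 0.16 (limma adjusted p = 7.36e-07). This neighbouring pair, too, is expressed from opposite copies in mouse, and both members were lower in UB.

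Plagl1 encodes a zinc-finger transcription factor that in mouse regulates a set of imprinted genes. It had 7493, 7996 and 9647 units on the UB arrays, 46495, 28051 and 23777 units on the WD+IM arrays, and 24808, 24779 and 22633 units on the WD arrays. All UB arrays were below all others, and WD+IM replicate 1 was far above the other WD+IM arrays. UB against WD gave -1.52 ± 0.21 (limma adjusted p = 0.000253). With a term for the spike level described below, the value was -0.92 ± 0.32 and no longer called (limma adjusted p = 0.157). UB against WD+IM gave -1.91 ± 0.21 (limma adjusted p = 2.34e-05).

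Cdkn1c, the maternally expressed inhibitor of cyclin-dependent kinases p57, separated all 3 tissues. It had 15903, 14469 and 13187 units on the UB arrays, 46256, 47937 and 45288 units on the WD+IM arrays, and 22011, 23961 and 20063 units on the WD arrays. The order was UB, WD and WD+IM from low to high, with no overlap. The WD+IM mean was 2.11 times the WD mean, with a log2 difference of 1.08 ± 0.12 (limma adjusted p = 0.000157). UB against WD gave -0.60 ± 0.12 (limma adjusted p = 0.00304). That smaller difference depended on the scaling: it was -0.14 (limma adjusted p = 0.624) once arrays were centred on their medians, where the median of all probe sets moved to 0.34. It was also lost with the spike level (-0.54, limma adjusted p = 0.212) and with a covariate for the beta-actin 3′ to 5′ ratio (-0.50, limma adjusted p = 0.0611).

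**Figure D2:**
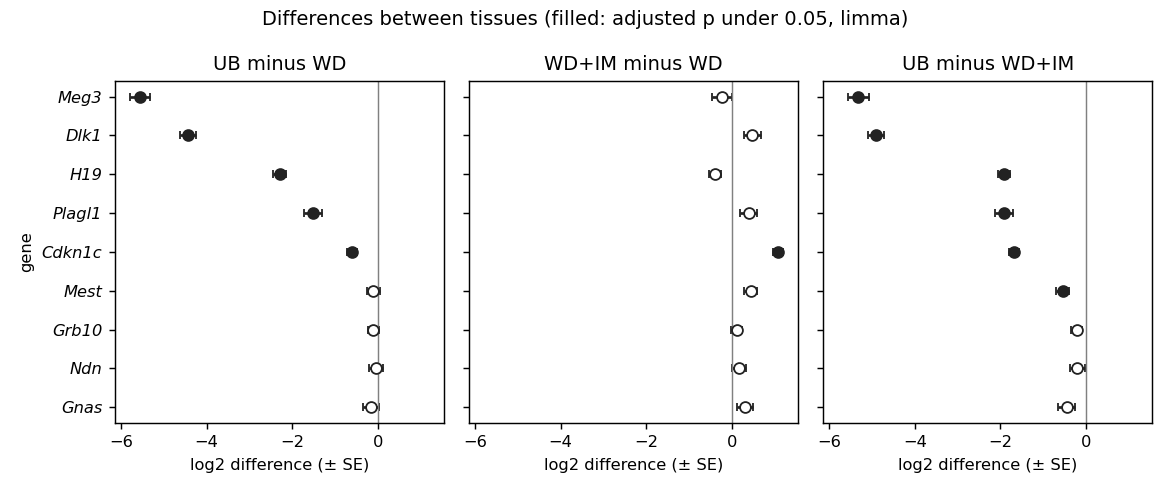
Log2 difference with its standard error for each gene, in UB minus WD, WD+IM minus WD and UB minus WD+IM, filled where the limma adjusted p is under 0.05. In UB minus WD the values run from -5.55 for Meg3 to -0.05 for Ndn, and in WD+IM minus WD only Cdkn1c, at 1.08, is filled.

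Mest, a paternally expressed protein of the hydrolase fold family, differed little. It had 56123, 57424 and 39593 units on the UB arrays, 67882, 84037 and 69315 units on the WD+IM arrays, and 56956, 49958 and 55978 units on the WD arrays. WD+IM was above every array of the other tissues, and UB and WD overlapped. UB against WD+IM gave -0.54 ± 0.15 (limma adjusted p = 0.0204), a call lost under 5 of 19 alternatives. Without UB replicate 3 it was -0.37 (limma adjusted p = 0.0802), without WD+IM replicate 2 it was -0.45 (limma adjusted p = 0.0859), and with median centring it was -0.18 (limma adjusted p = 0.561). With the spike level as a term it was -0.46 (limma adjusted p = 0.249), and with no variance trend it was -0.54 (limma adjusted p = 0.0662). UB against WD gave -0.11 ± 0.15 (limma adjusted p = 0.625). Copg2, which lies next to Mest, gave 0.37 ± 0.14 in UB against WD and was not called (limma adjusted p = 0.0584).

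Grb10, an adaptor that restrains signalling by the insulin and IGF1 receptors, was not called by any of its 3 probe sets in the values as deposited. The brightest had 56513, 61985 and 52143 units on the UB arrays, 63349, 71306 and 63492 units on the WD+IM arrays, and 56191, 72124 and 56988 units on the WD arrays, with UB and WD overlapping. Its UB against WD difference was -0.11 ± 0.13 (limma adjusted p = 0.530). The other 2 probe sets disagreed in sign in UB against WD, at -0.59 ± 0.41 for 1397211_at and 1.08 ± 0.66 for 1394610_at. With median centring 1394610_at was called higher in UB against WD (1.54, limma adjusted p = 0.0295) and in WD+IM against WD (1.68, limma adjusted p = 0.0482). Single arrays stood out in them: WD+IM replicate 1 had 11893 units in 1397211_at and 10444 units in 1394610_at, and UB replicate 3 had 8236 units in 1394610_at, where the other UB arrays had 1867 and 1223 units. Ddc, an imprinted decarboxylase gene in mouse heart with 1 gene that starts between its start and that of Grb10, averaged 1583 ± 155 units in UB, 5533 ± 441 units in WD+IM and 3103 ± 672 units in WD (SD, n = 3 each).

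Ndn (necdin, a growth suppressor of the MAGE family) was level. It had 14776, 12502 and 14827 units on the UB arrays, 12608, 17729 and 18739 units on the WD+IM arrays, and 12668, 16669 and 14295 units on the WD arrays. All tissues overlapped, and the difference in UB against WD was -0.05 ± 0.17 (limma adjusted p = 0.853).

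Gnas was measured by 3 probe sets, and none was called in the main fit, which gave all 9 arrays equal weight. The brightest, 1369897_s_at, is of a type whose probes can match several transcripts. It had 66135, 63989 and 66516 units on the UB arrays, 93953, 109602 and 70930 units on the WD+IM arrays, and 65782, 59902 and 99517 units on the WD arrays. The UB arrays were close together and below all WD+IM arrays, while WD replicate 3 was far above the other WD arrays. The difference in UB against WD+IM was -0.46 ± 0.19 (limma adjusted p = 0.105), and without WD+IM replicate 3 it was -0.63 and called (limma adjusted p = 0.0332). With array weights it was -0.49 and called too (limma adjusted p = 0.0276). The dimmer 1390263_at averaged 385 ± 48.7 units in UB, 745 ± 710 units in WD+IM and 1043 ± 288 units in WD (SD, n = 3 each). Its UB against WD difference was -1.31 ± 0.52 (limma adjusted p = 0.0734), and a limma fit of those 2 tissues alone called it (adjusted p = 0.00845). The fit with array weights called it too, at -1.27 (limma adjusted p = 0.0286). Its WD+IM against WD difference was -0.82 (limma adjusted p = 0.327), and -1.53 without WD+IM replicate 1, which was called (limma adjusted p = 0.0248). The third probe set, 1387906_a_at, had 259, 235 and 332 units on the UB arrays, 1101, 515 and 448 units on the WD+IM arrays, and 582, 405 and 574 units on the WD arrays. The UB arrays were below all others. Its UB against WD+IM difference was -1.10 ± 0.38 (limma adjusted p = 0.0547), and it was called under 3 alternatives: no variance trend (limma adjusted p = 0.0341), array weights (limma adjusted p = 0.0247) and without WD+IM replicate 3 (limma adjusted p = 0.0359). Its UB against WD difference was called with array weights, at -0.90 (limma adjusted p = 0.0474). The mean of all 3 probe sets gave -0.76 in UB against WD and was called (limma adjusted p = 0.0368).

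**Figure D3:**
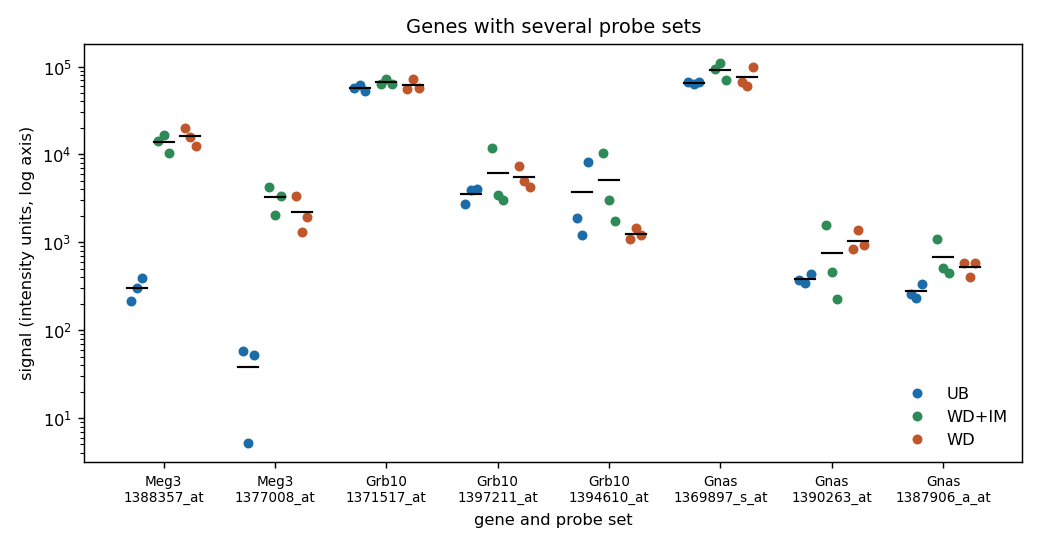
Signal in intensity units on a log axis for every probe set of Meg3, Grb10 and Gnas, with 1 point per array, group means as bars, and UB, WD+IM and WD from left to right. Both Meg3 probe sets put UB below the other tissues, while the dimmer Grb10 and Gnas probe sets have single arrays, such as WD+IM replicate 1, far from their group.

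Markers of other cell types also differed between the tissues, and the lists did not all go the same way. The summed signal of 16 mesenchyme markers was 10517 to 14400 units in UB, 245420 to 288450 units in WD+IM and 112954 to 152449 units in WD. In UB against WD 13 of the 16 were lower, beside 18.6% of all probe sets. In WD+IM against WD 9 of the 16 were higher and none was lower, beside 5.62% of all probe sets higher. Of the 9 imprinted genes only Cdkn1c was called in that comparison. The sum of 7 mesothelium markers was 8947 to 12529 units in UB, 137117 to 149496 units in WD+IM and 106407 to 120637 units in WD. Wt1, a factor of mesothelium and nephron progenitors, averaged 977 units in UB, 38675 units in WD+IM and 17267 units in WD. Of the mesothelium markers tested in WD+IM against WD, Wt1 alone was called higher, 1 was lower and 4 were not called. The lower one was Msln, at -2.07 ± 0.23 (limma adjusted p = 0.000168). The isolated WD arrays thus carried signal of both lists.
The sum of 9 red cell markers was 10270 to 33379 units in UB, 162660 to 236262 units in WD+IM and 185432 to 262614 units in WD. That of 14 duct epithelium markers was 240938 to 258379 units in UB, 80473 to 118848 units in WD+IM and 250677 to 272027 units in WD. Its members went both ways in UB against WD, where 11.3% of all probe sets were higher and 18.6% lower. Of the 14, 3 were higher (Ret, Lhx1 and Calb1) and 5 lower (Krt19, Cdh16, Pax8, Krt8 and Krt18). The difference was 2.62 ± 0.20 for Ret and -4.69 ± 0.16 for Krt19. The sum of 13 endothelium markers was 4439 to 5971 units in UB, 49883 to 51140 units in WD+IM and 6201 to 7601 units in WD. Of these 13, 11 were higher in WD+IM than in WD, beside 5.62% of all probe sets. The sum of 11 macrophage markers was 2022 to 2809 units in UB, 6350 to 8665 units in WD+IM and 4693 to 6766 units in WD. That of 6 smooth muscle markers was 2973 to 3337 units in UB, 22509 to 28383 units in WD+IM and 7535 to 8608 units in WD. Of 7 neural crest markers it was 10040 to 12391 units in UB, 3501 to 4174 units in WD+IM and 3492 to 4426 units in WD, a sum led by Gap43, at 8398 units in UB and 907 units in WD. Stmn2 of the same list was lower in UB than in WD (-1.22 ± 0.42, limma adjusted p = 0.0467). The lists for skeletal muscle, germ cells and adrenal or gonad had 1, 2 and 2 tested members. No marker of any of these lists was listed at 0. The part of these cells in the differences of the imprinted genes was not tested.

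A technical measure moved with tissue as well. The ratio of the bioC to the bioB spike lay between 2.87 and 2.99 for every UB array, was 2.93 for WD+IM replicate 3, and lay between 1.02 and 1.23 for the other 5 arrays. The beta-actin 3′ to 5′ ratio was 1.48 to 2.30 on UB arrays, 1.47 to 1.92 on WD+IM arrays and 2.19 to 4.87 on WD arrays. Since all UB arrays had the high spike ratio and all WD arrays the low one, UB and WD can be compared at a common spike level only through WD+IM. Such a comparison rests on WD+IM replicate 3, the only array outside UB with the high ratio. With spike level as a term, UB against WD gave -5.0 ± 0.41 for Meg3 (limma adjusted p = 0.000135), -4.22 ± 0.35 for Dlk1 (limma adjusted p = 0.00015) and -2.13 ± 0.26 for H19 (limma adjusted p = 0.00105), all still called, and 3 of the 9 genes were called in place of 5. Within the arrays of high ratio, the 3 UB arrays minus WD+IM replicate 3 gave -4.95 for Meg3, -4.76 for Dlk1, -1.80 for H19, -1.64 for Cdkn1c and -1.51 for Plagl1. Within the arrays of low ratio, WD+IM minus WD gave 1.10 for Cdkn1c.

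The tested genes whose signals were most like those of the 3 widest-ranging members over the 9 arrays were ranked by Pearson's r on the log2 scale, as a description. These arrays fall into 3 UB arrays at low signal and 6 others, so r mostly sets UB against the rest. For Meg3 they were Ano1 (0.995), Myrf (0.995), Pde1b (0.994), Gli1 (0.993) and Krt19 (0.992), of which Krt19 is among the duct epithelium markers used above. For Dlk1 they were Tmem132c (0.998), Col3a1 (0.997), Osr2 (0.997), Dcn (0.996) and Agtr2 (0.996), of which Col3a1, Osr2 and Dcn are among the mesenchyme markers used above. For H19 they were Zfp185 (0.994), Aebp1 (0.993), Camk2d (0.992), Stat6 (0.991) and Ppp1r13b (0.991).

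Of 52 other genes imprinted in mouse or human, 31 were tested. In UB against WD, 13 were lower and 2 were higher (Mcts2 and Zdbf2), where 18.6% of all probe sets were lower and 11.3% higher. The median difference of the 31 was -0.29, against -0.12 for all probe sets. With the spike level as a term only 3 were called, all lower (Igf2, Ano1 and Slc38a4). Ano1, a calcium-activated chloride channel imprinted in mouse placenta, had the lowest difference of the list. It averaged 340 ± 92.8 units in UB, 7039 ± 582 units in WD+IM and 7286 ± 1512 units in WD (SD, n = 3 each), and its log2 difference in UB against WD was -4.26 ± 0.22 (limma adjusted p = 1.11e-07). Slc38a4, an amino acid transporter, gave -1.85 ± 0.21 (limma adjusted p = 6.69e-05), and Igf2r, the maternally expressed receptor that clears IGF2, gave -0.77 ± 0.13 (limma adjusted p = 0.00135). In WD+IM against WD, where 5.62% of all probe sets were higher and 7.06% lower, 3 were higher (Igf2r, Nnat and Ddc) and 3 lower (Atp10a, Dlx5 and Calcr). With the spike level as a term 3 of these 6 were called, namely Igf2r, Ddc and Atp10a. The call was lost in 10 of 18 alternatives for Igf2r, 13 of 18 for Nnat and 13 of 17 for Calcr. In UB against WD+IM 10 were lower and none higher, where 14.5% of all probe sets were lower and 11% higher.

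**Figure D4:**
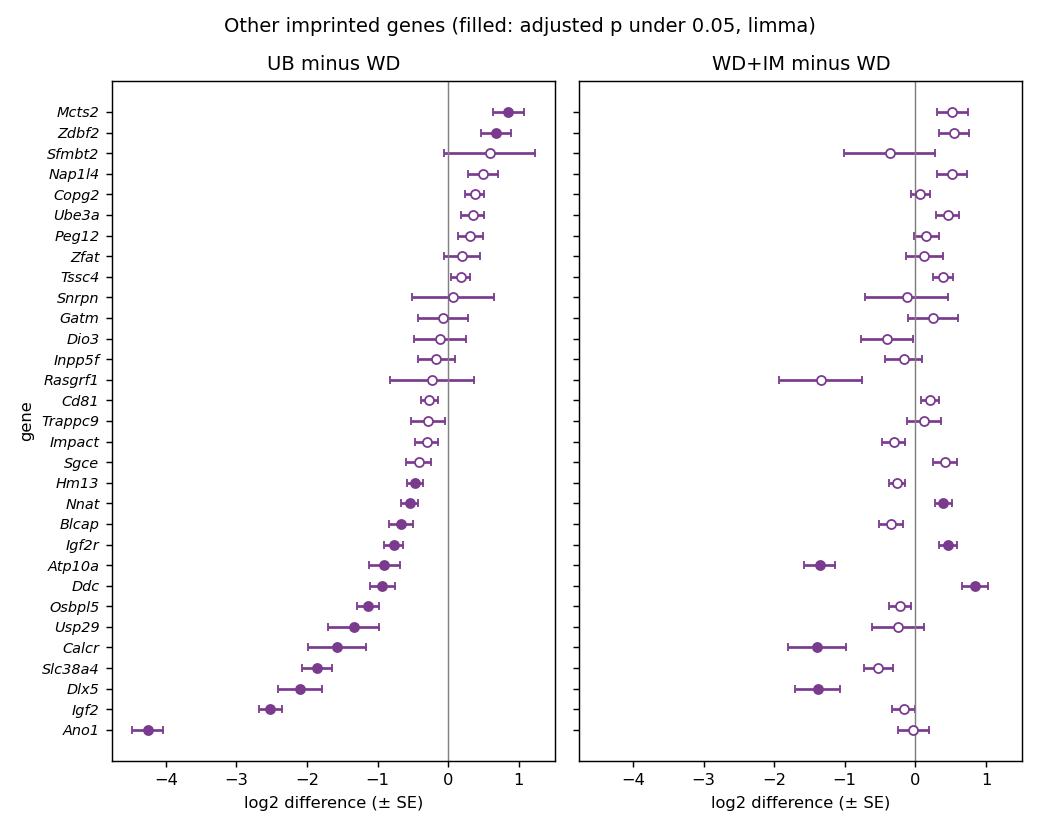
Log2 difference with its standard error for the 31 other imprinted genes tested, in UB minus WD and WD+IM minus WD, ordered by the UB minus WD difference and filled where the limma adjusted p is under 0.05. In UB minus WD 13 filled points lie below 0, Ano1 the lowest at -4.26, and 2 lie above 0. In WD+IM minus WD 3 lie above and 3 below.

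Of 15 tested relatives of the members that are not imprinted, 2 were lower in UB than in WD and none was higher, beside 18.6% of all probe sets lower. None of the 15 was called there with the spike level as a term, where 798 of all 20330 probe sets were called. In WD+IM against WD 3 were higher (Maged2, Gnai2 and Gna12) and 2 lower (Cdkn1a and Grb7), where 5.62% of all probe sets were higher and 7.06% lower. The 2 that were lower in UB than in WD were Cdkn1a (p21, a sister of Cdkn1c among the kinase inhibitors) and Maged2 (a MAGE protein related to Ndn). Cdkn1a averaged 1917 ± 535 units in UB, 1879 ± 183 units in WD+IM and 4658 ± 802 units in WD (SD, n = 3 each). Its difference in WD+IM against WD was -1.28 ± 0.21 (limma adjusted p = 0.00195), where Cdkn1c gave 1.08. Cdkn1b (p27), the remaining inhibitor of that family, gave 0.37 ± 0.13 there and was not called (limma adjusted p = 0.0745). Grb7, a relative of Grb10, gave -1.53 ± 0.29 in WD+IM against WD (limma adjusted p = 0.0044). The WD+IM against WD call was lost in 10 of 18 alternatives for Maged2, 6 of 18 for Gnai2 and 12 of 18 for Gna12. In UB against WD+IM 1 relative was higher (Grb7) and 2 lower (Maged2 and Gnai2), where 11% of all probe sets were higher and 14.5% lower. Whether these relatives and the imprinted genes differ as groups was not tested.

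Of 10 tested cyclins and kinases that p57 acts on or that work beside its targets, 7 were higher and 1 (Ccnd3) lower in UB against WD. Over all probe sets 11.3% were higher and 18.6% lower as deposited, while 5835 were higher and 1530 lower with median centring. None of the 10 was called with the spike level as a term. Ccne1 gave 1.15 ± 0.17 (limma adjusted p = 0.00054) and Ccnd1 gave 1.27 ± 0.20 (limma adjusted p = 0.000653). In WD+IM against WD, where 12.7% of all probe sets were called, Ccnb1 alone was called, at 0.49 ± 0.14 (limma adjusted p = 0.0373). The Ccnb1 call was lost in 9 of 18 alternatives, among them the spike level as a term.
Of 11 genes of the IGF and insulin pathway, on which Grb10 acts, 7 were lower in UB than in WD and none was higher. Over all probe sets 18.6% were lower and 11.3% higher, a split that depended on the scaling. With the spike level as a term 1 was called, namely Igf2. Both Igf2 and Igf2r, which were among the 7, are also counted among the other imprinted genes above. Igf1, the growth factor, averaged 144 ± 93.4 units in UB, 5945 ± 1298 units in WD+IM and 1142 ± 398 units in WD (SD, n = 3 each). Its difference in WD+IM against WD was 2.37 ± 0.37 (limma adjusted p = 0.00121). Igf1r, its receptor, gave -1.21 ± 0.17 in UB against WD (limma adjusted p = 0.000392).

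Of 16 genes that set, keep, read or remove imprints or DNA methylation, 3 were higher in UB than in WD (Uhrf1, Smchd1 and Rif1) and 1 was lower (Tet2). The 4 called of 16 are near the 29.9% called over all probe sets. Uhrf1, which brings the maintenance methylase to newly copied DNA, averaged 16736 ± 1973 units in UB, 7913 ± 180 units in WD+IM and 5838 ± 1440 units in WD (SD, n = 3 each). Its difference in UB against WD was 1.54 ± 0.17 (limma adjusted p = 6.33e-05), and it was the 1 gene of this list still called with the spike level as a term. Dnmt1, the maintenance methylase itself, gave 0.29 ± 0.15 and was not called (limma adjusted p = 0.162). None of the 16 was called in WD+IM against WD by limma, where 12.7% of all probe sets were called.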

How the data were processed

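Biotin-labelled cRNA from pooled tissue was read on single-colour arrays, per the labels' protocols. The deposited table gives 1 intensity per probe set and array. GCOS, the Affymetrix software, made these values per the submitters' processing notes, with its version and summary method not given here. The mean after trimming 2% of probe sets from both ends is 2501 on all 9 arrays, so a difference is relative to the rest of its array. No detection calls were used.

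Genes were named through the platform table: 20826 probe sets had 1 symbol, 436 several and 9780 none, besides 57 controls. R 4.3.3 and limma 3.58.1 tested log2(intensity + 46), the 10th percentile of all values, for the 20330 probe sets with at least 3 of 9 arrays above that array's 40th percentile. Tissue was the only term, with 6 residual and 6.08 prior degrees of freedom, a variance trend and Benjamini-Hochberg adjustment within a comparison. The members, gene lists and alternatives were chosen with earlier results of these data known. Named genes were all members, up to 4 of each list with the smallest p and called list members where 5 or fewer were called in a direction, bright markers, and the 5 genes most like each of the 3 widest-ranging members. Not every list gene that met this rule is described above, and Irs2 and Cdk1 are among those left out. Dio3, Copg2, Cdkn1b, Dnmt1, Slc38a4, Msln and the duct and neural crest markers named were added outside this rule, after their values were seen. Alternatives changed the normalization, pseudocount, filter, variance model, array weights, groups fitted, probe set summary, replicate block, spike or beta-actin terms, or left out an array. On simulated data for UB against WD, the test called 45% of genes changed by a log2 of 1 and 87% of those changed by 2, and 6 of 138 calls were false.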

Additional observations from a re-analysis of the deposited data

How the results depend on the processing

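No called difference of the 9 genes reversed under any alternative. In UB against WD, Meg3, Dlk1 and H19 were called in all 19 alternatives run, Plagl1 in 18 and Cdkn1c in 16, and in WD+IM against WD Cdkn1c was called in each alternative. Genes called in WD+IM against WD were 2 with quantile normalization, where Mest was added (0.47, limma adjusted p = 0.025), and genes called in UB against WD were 3 with the spike level as a term. Probe sets called in UB against WD were 6073, and 798 with the spike level, 3276 with the beta-actin covariate and 3743 without UB replicate 1. Those called in UB against WD+IM were 5176, and 2414 with the spike level. In WD+IM against WD they were 2578, and 826 with the beta-actin covariate. Leaving out each array in turn gave 5 to 5 genes and 3743 to 5569 probe sets in UB against WD, 1 to 1 genes and 1778 to 2715 probe sets in WD+IM against WD, and 5 to 7 genes and 3637 to 5280 probe sets in UB against WD+IM. With the replicate number as a block, 5, 1 and 6 genes were called in these comparisons taken in the same order, as without it. Same-numbered arrays did not deviate together, with correlations from -0.35 to 0.28. With 3 arrays in each tissue, such values cannot exclude a pairing by number. The 9 arrays limit the precision, and weak signals, such as those of Meg3 and Dlk1 in UB, cannot be told from background.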
